A study of Mus musculus with 48 samples.

Results

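Glucocorticoids are steroid hormones of the adrenal gland, and in mice the main one is corticosterone. Among the 24444 genes of the deposited table of cortical expression, the 10 genes described here are the 2 receptors that bind these hormones in the brain, *Nr3c1* and *Nr3c2*, and 8 genes that the hormones are known to induce, *Fkbp5*, *Tsc22d3*, *Sgk1*, *Zbtb16*, *Mt1*, *Mt2*, *Pdk4* and *Plin4*. Their rows were taken from the table by gene symbol. All 10 symbols had a row, and all 10 passed the filter on low values in every comparison.

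RNA of the cortex of a single hemisphere was sequenced from 48 male mice of the C57BL/6J strain, 6 wild-type (WT) and 6 heterozygous (HET) mice at each of E14.5 (embryonic day 14.5), 1 month, 6 months and 12 months. The HET mice carried the allele V986* of *Chd8*, a chromatin remodeler linked to autism, in which tandem stop codons had been inserted by CRISPR, and the WT mice were littermates with 2 intact copies. The line goes back to a single founder male that was bred to C57BL/6J mice, and no mouse received a drug or hormone according to the labels and methods. The times of day at which tissue was taken and the plasma corticosterone of these mice were not analysed here.

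In the absence of hormone, the glucocorticoid receptor (*Nr3c1*) is held in the cytoplasm by a chaperone complex with heat shock protein 90. With hormone it enters the nucleus, binds glucocorticoid response elements in DNA and raises the transcription of nearby genes within hours. The mineralocorticoid receptor (*Nr3c2*) recognizes the same elements and binds corticosterone more tightly, so that in the brain it is occupied at low hormone levels while the glucocorticoid receptor responds to the daily peak and to stress. Among the induced genes, *Fkbp5* encodes a cochaperone that lowers the affinity of the receptor for hormone and so closes a feedback loop. *Tsc22d3* encodes GILZ, an anti-inflammatory leucine zipper protein, *Sgk1* a kinase that regulates ion transport, and *Zbtb16* the zinc finger repressor PLZF. *Mt1* and *Mt2* encode metallothioneins, small proteins that bind zinc and copper, *Pdk4* a kinase that turns down pyruvate dehydrogenase, and *Plin4* a protein that coats lipid droplets.

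Sequences that match the elements through which these hormones act can be read next to several of the genes. The consensus glucocorticoid response element is a palindrome, the arms AGAACA and TGTTCT around a spacer of any 3 bases. It was searched on both strands of the RefSeq promoters of the GRCm38.p6 build, which run from 250 bases before to 50 bases after each transcript start and cover 8 of the 10 genes with 15 promoters. *Nr3c1* and *Zbtb16* have no entry. The full consensus was present in 3 of 32851 promoters of all genes (0.00913%). A promoter of *Sgk1* is among them (chr10:21993640-21993939, plus strand), with the match in capitals starting 189 bases before the transcript start.
*Sgk1* promoter: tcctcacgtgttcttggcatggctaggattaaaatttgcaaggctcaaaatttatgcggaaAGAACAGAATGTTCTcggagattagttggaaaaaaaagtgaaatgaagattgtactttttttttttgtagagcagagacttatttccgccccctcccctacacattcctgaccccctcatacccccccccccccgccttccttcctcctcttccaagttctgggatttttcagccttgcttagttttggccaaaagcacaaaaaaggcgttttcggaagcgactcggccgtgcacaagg

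A looser form of the element, GNACA and TGTNC around the same spacer, where N is any base, lies within every full match and was present in 156 of the 32851 promoters (0.475%). It was also searched within 5000 bases on either side of the gene start in the mm9 genome, the build the authors aligned to, where 3489 of 22380 genes held at least 1 match (15.6%). *Fkbp5* (chromosome 17, 28536040 to 28654469, minus strand) held 4 matches, 3 of them upstream of its start. *Plin4* (chromosome 17, 56240014 to 56249225, minus strand) held 2 matches, both downstream of its start. They are shown along the strand of the gene with the match in capitals, as the places where receptor could contact DNA, and a match of letters does not show binding.
*Fkbp5*, centre 4610 bases upstream (chr17:28659066-28659092): ggaaggaGGACAAAGTGTTCcatgctc
*Fkbp5*, centre 1514 bases upstream (chr17:28655970-28655996): tctccagGCACAGGGTGTCCctagggg
*Fkbp5*, centre 662 bases upstream (chr17:28655118-28655144): tcgcccgGGACATTGTGTTCcagcccc
*Fkbp5*, centre 3615 bases downstream (chr17:28650841-28650867): ctctgggGGACACTGTGTTCtgggcag
*Plin4*, centre 944 bases downstream (chr17:56248268-56248294): gagtccaGCACAGAATGTCCtctcgca
*Plin4*, centre 4062 bases downstream (chr17:56245150-56245176): gtacgaaGGACACGGTGTCCacagggc

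*Mt1* and *Mt2* are neighbours on the plus strand of chromosome 8, *Mt2* from 96696518 to 96697467 and *Mt1* from 96702989 to 96704225 in mm9. Metallothionein genes respond to zinc through metal response elements, and their cores, TGCACNC or TGCGCNC on either strand, are in capitals in the promoters below, from GRCm38.p6. At least 1 core was present in 25.7% of all promoters and at least 4 in 0.517%. The *Mt2* promoter held 4 cores, 2 on each strand, and the *Mt1* promoter 3. The *Mt1* promoter also held 1 looser glucocorticoid response element, GGACATGATGTTC, which starts 94 bases before the transcript start and is left in lower case.
*Mt2* promoter (chr8:94172368-94172667): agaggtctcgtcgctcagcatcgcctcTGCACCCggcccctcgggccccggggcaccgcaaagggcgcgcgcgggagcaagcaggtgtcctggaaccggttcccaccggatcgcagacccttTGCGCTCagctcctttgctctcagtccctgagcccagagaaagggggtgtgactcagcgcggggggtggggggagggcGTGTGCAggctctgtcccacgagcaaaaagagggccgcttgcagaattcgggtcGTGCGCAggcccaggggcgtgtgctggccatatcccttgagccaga
*Mt1* promoter (chr8:94178839-94179138): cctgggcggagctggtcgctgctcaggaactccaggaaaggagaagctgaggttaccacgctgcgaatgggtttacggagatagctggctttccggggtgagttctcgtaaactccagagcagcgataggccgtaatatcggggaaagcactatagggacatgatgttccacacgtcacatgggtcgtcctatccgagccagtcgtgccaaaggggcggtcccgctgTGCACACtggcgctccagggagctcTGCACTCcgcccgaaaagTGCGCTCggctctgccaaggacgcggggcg

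Within 5000 bases of the gene start in mm9, the looser element had 2 matches each at *Mt1* and *Mt2*, of which 1 lies between the genes and was counted for both. None was found in that window at the other 6 genes, where *Sgk1* is measured from a gene start far upstream of the promoter shown above. No match says only that these letters are absent from the window.

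The deposited values are variance-stabilizing transformation (VST) values on a log2 scale, so that 1 unit stands for about 1 doubling of RNA wherever expression is well above background. Their floor, the value of a gene without reads, was 2.1433. The values are not divided by gene length, so levels are compared between mice but not between genes. *Chd8* itself was lower in all 6 HET than in all 6 WT mice at each of the 4 ages, by 0.54 to 0.67 log2 units, so each library matched its genotype label. The mean of 8 markers of cortical neurons lay between 11.13 and 12.38 in every mouse. The mean of the 7 of 10 listed markers of midbrain, hindbrain and spinal cord that could be used ran from 3.64 to 7.99 in WT and from 3.81 to 6.13 in HET embryos, and at most 3.80 in postnatal mice. The library of WT replicate 6 at 12 months stood farthest from its group, with a median absolute deviation of 0.19 log2 units over genes against 0.062 to 0.17 in the others. At 6 months, replicates 2 and 3 of both genotypes stood apart in the genes described here, and values with and without these 4 mice are given where they matter.

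**Figure D1:**
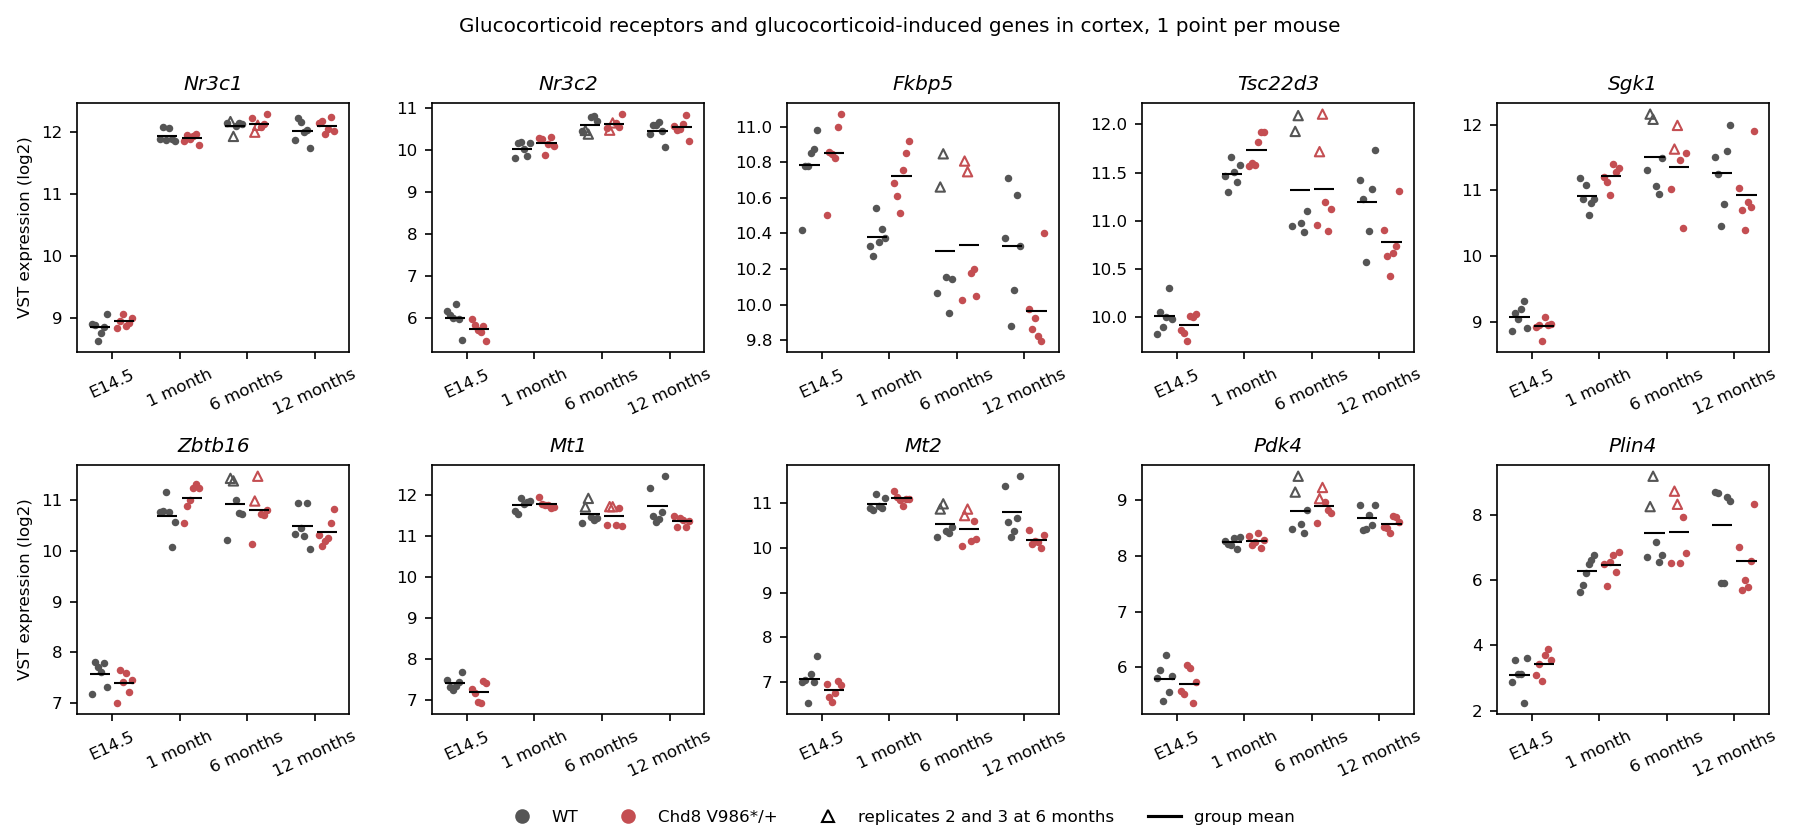
VST expression (log2) of the 2 receptors and the 8 induced genes in each of the 48 mice, by age (horizontal axis) and genotype (WT grey, HET red). Bars are group means, and open triangles are replicates 2 and 3 at 6 months, which hold the highest values of their groups in all 8 induced genes but in neither receptor.

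The question put first was how the receptors and their targets change as the cortex matures. Both receptors rose steeply between E14.5 and 1 month. The lowest, median and highest *Nr3c1* values were 8.63, 8.86 and 9.07 in WT embryos and 11.86, 11.88 and 12.08 in WT mice of 1 month. The groups did not overlap, and the means differed by 3.09 ± 0.07 (SE, *n* = 6 against 6, limma adjp = 1.6e-15). HET mice had *Nr3c1* values of 8.84, 8.93 and 9.06 at E14.5 and 11.79, 11.91 and 11.97 at 1 month, again without overlap, a difference of 2.96 ± 0.05 (adjp = 1.7e-17). Over all genes, 85.7% passed in WT and 86.1% in HET mice, and the share without overlap was not counted. In bulk tissue, a change in the share of cells that express a gene and a change in its RNA per cell cannot be told apart.

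The mineralocorticoid receptor *Nr3c2* (mm9 chromosome 8, 79423341 to 79768911, plus strand) is known for its high level in hippocampus and is also made by cortical neurons. In WT mice it was at 5.48, 6.04 and 6.33 (lowest, median, highest) at E14.5 and at 9.80, 10.08 and 10.19 at 1 month. The difference of 4.01 ± 0.12 exceeded that of *Nr3c1* in log2 units, and in HET mice it was 4.40 ± 0.10 (adjp = 6.2e-14 and 3.0e-16). Both receptors rose again from 1 to 6 months, by far less. *Nr3c1* was higher at 6 months by 0.16 ± 0.05 in WT (adjp = 0.032) and 0.24 ± 0.05 in HET mice (adjp = 0.0019), and *Nr3c2* by 0.56 ± 0.09 (adjp = 0.00025) and 0.45 ± 0.07 (adjp = 0.00048). In HET mice all 6 *Nr3c1* values of 6 months lay above all 6 of 1 month, and in WT mice 5 of 6 did. How many of all genes separate in this way was not counted, and 26.8% passed the test in HET and 24.6% in WT mice. From 6 to 12 months neither receptor passed the test, with differences of −0.09 and −0.04 for *Nr3c1* and −0.14 and −0.07 for *Nr3c2* in WT and HET mice.

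Of the 8 induced genes, 7 rose from E14.5 to 1 month in both genotypes, beside a background of 85.7% of all genes tested that passed in WT mice (43.4% higher and 42.3% lower) and 86.1% in HET mice (43.7% higher and 42.4% lower). The median difference of the 8 genes was 2.79 in WT and 2.80 in HET mice, and that of all genes 0.02 in each. The largest differences were those of the metallothioneins. In WT mice, *Mt1* was at 7.23 to 7.67 at E14.5 and at 11.54 to 11.93 at 1 month, a difference of 4.35 ± 0.08 (adjp = 2.2e-16). *Mt2* rose by 3.93 ± 0.13 (adjp = 1.3e-13), from 6.53 to 7.58 in embryos to 10.85 to 11.20 at 1 month. In HET mice the metallothioneins rose by 4.58 ± 0.09 and 4.30 ± 0.08.

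The lipid droplet gene *Plin4* was near the floor in embryos, at 2.24 to 3.61 in WT and 2.89 to 3.89 in HET mice, and 5.65 to 6.86 in the 12 mice of 1 month. It rose by 3.19 ± 0.25 and 3.04 ± 0.20, values that understate the change because the scale flattens near its floor. *Zbtb16* (chromosome 9, 48462416 to 48644050, minus strand) rose by 3.13 ± 0.15 in WT and 3.65 ± 0.13 in HET mice. *Pdk4* (chromosome 6, 5433351 to 5446309, minus strand) rose by 2.45 ± 0.12 and 2.57 ± 0.12. The smallest increases were those of *Sgk1* (1.83 ± 0.10 and 2.29 ± 0.08; chromosome 10, 21601990 to 21719709, plus strand) and *Tsc22d3* (1.48 ± 0.08 and 1.82 ± 0.08; chromosome X, 137074067 to 137135198, minus strand). In each of these genes all 6 mice of 1 month lay above all 6 embryos of their genotype. The share of all genes that separate in this way was not counted, and 85.7% and 86.1% passed the test in WT and HET mice.

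*Fkbp5*, the feedback gene, went the other way. In WT embryos it was at 10.42, 10.82 and 10.98 (lowest, median, highest) and at 1 month at 10.27, 10.36 and 10.54. It fell by 0.40 ± 0.08 (adjp = 0.00023) in WT mice. In HET mice the values were 10.50, 10.85 and 11.07 at E14.5 and 10.51, 10.72 and 10.92 at 1 month, a difference of −0.13 ± 0.09 that did not pass (adjp = 0.19). It passed without HET replicate 1 of E14.5 (−0.20, adjp = 0.017), the lowest embryo of its group, whose removal must raise the mean at E14.5. Whether *Fkbp5* changed differently in the 2 genotypes was tested in one fit of all mice, and that difference of 0.27 ± 0.19 did not pass (adjp = 1.0).

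Between 1 and 6 months the induced genes parted. In WT mice 3 of 8 rose, 1 fell and 4 did not pass, beside a background of 24.6% of genes (12.3% in each direction). In HET mice 2 rose and 4 fell, beside 26.8% (14% higher and 12.8% lower). The 2 metabolic genes rose in both genotypes. *Pdk4* was at 8.13 to 8.34 in WT mice of 1 month and at 8.41 to 9.43 at 6 months, a difference of 0.57 ± 0.14 (adjp = 0.0088). In HET mice it rose by 0.63 ± 0.09 (adjp = 0.00013). *Plin4* rose by 1.18 ± 0.37 in WT (adjp = 0.035) and 1.03 ± 0.34 in HET mice (adjp = 0.043). *Sgk1* rose in WT mice, by 0.61 ± 0.18 (adjp = 0.025), and its difference in HET mice was 0.14 ± 0.19 (adjp = 0.66).

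*Mt2* fell between 1 and 6 months in both genotypes. Its highest value at 6 months was 10.99 in WT and 10.87 in HET mice, where the 12 mice of 1 month spanned 10.85 to 11.28. The decrease was 0.44 ± 0.11 in WT (a difference of −0.44, adjp = 0.012) and 0.68 ± 0.12 in HET mice (−0.68, adjp = 0.00072). *Mt1* had a difference of −0.29 ± 0.09 in HET mice, which passed (adjp = 0.025), and −0.22 ± 0.09 in WT mice, which did not (adjp = 0.10). *Fkbp5* (−0.39 ± 0.12, adjp = 0.037) and *Tsc22d3* (−0.40 ± 0.16, adjp = 0.098) fell in HET mice, and in WT mice they differed by −0.08 and −0.16 (adjp = 0.71 and 0.58). For *Tsc22d3* the call in HET mice was lost in 8 of 12 fits that left out 1 mouse. Whether the genotype effect at 6 months differed from that at 1 month was tested in one fit of all mice, and it did for none of the 10 genes and for 0 of 17311 genes in all, of which 581 had an unadjusted *p* below 0.05.

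These values rest in part on 4 mice. Without replicates 2 and 3 of 6 months, which are left out because they were high in these same genes, the mean at 6 months must drop. In WT mice the differences between 6 months and 1 month were then −0.30 for *Fkbp5*, −0.51 for *Tsc22d3*, −0.35 for *Mt1* and −0.63 for *Mt2*, and *Plin4* was at 0.54 and *Sgk1* at 0.30. In HET mice they were −0.61 for *Fkbp5*, −0.69 for *Tsc22d3*, −0.45 for *Zbtb16* and 0.50 for *Plin4*. The HET increase of *Plin4* was then no longer called (adjp = 0.21), and *Zbtb16* was called lower (adjp = 0.050). The receptors and *Pdk4* were higher at 6 months with and without the 4 mice.

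From 6 to 12 months, 0 of the 10 genes passed in WT mice, beside 1 of 17283 genes (0.00579%), 1167 of which had an unadjusted *p* below 0.05. In HET mice, 1 passed, *Pdk4* (−0.33 ± 0.09, adjp = 0.079), beside a background of 3.43% (1.07% higher and 2.36% lower). It was at 8.59 to 9.23 at 6 months and at 8.42 to 8.71 at 12 months, where the groups overlap. The call was lost without the 6-month replicates 2 and 3 (−0.22, adjp = 0.35), in 7 of 12 fits that left out 1 mouse, in one fit of all 48 mice (adjp = 0.31), with the replicate block (adjp = 0.13), without the filter (adjp = 0.15) and without the trend (adjp = 0.15). Without HET replicate 6 of 12 months, *Fkbp5* (−0.46) and *Tsc22d3* (−0.66) were called as well, in a fit whose calls over all genes were not counted. That mouse was the highest of its group in both genes, so that leaving it out must lower the mean at 12 months.

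Genotype was compared at each age. At E14.5 and 6 months none of the 10 genes differed between HET and WT mice by the test, beside 0.00593% (all lower) and 0.0927% (0.0522% higher and 0.0406% lower) of all genes, and at unadjusted *p* below 0.05 there were 769 and 1310 genes. The differences ran from −0.26 ± 0.14 (*Nr3c2*) to 0.34 ± 0.24 (*Plin4*) at E14.5. At 6 months they ran from −0.16 ± 0.24 (*Sgk1*) to 0.09 ± 0.15 (*Pdk4*). Without replicates 2 and 3 of that age they ran from −0.10 ± 0.095 (*Mt2*) to 0.22 ± 0.098 (*Pdk4*, adjp = 0.68), and again none passed. The median of the 8 induced genes was −0.12 at E14.5 and −0.03 at 6 months. No marker of a cell type or region passed at these ages. The list medians farthest from 0 at E14.5 were those of midbrain, hindbrain and spinal cord (−1.33), cortical neurons (0.36) and blood (−0.29). At 6 months they were those of choroid plexus (−0.59), oligodendrocytes (−0.25) and meninges (0.235). Their part in the differences of the 10 genes was not tested. Averaged over the 4 ages, no member passed either, where 3% of genes did (1.48% higher and 1.51% lower).

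At 1 month, *Fkbp5* was higher in HET mice, the single member that passed the test, beside 24 of 17221 genes called (0.139%, with 0.0348% higher and 0.105% lower). The 6 WT mice, from replicate 1 to 6, were at 10.33, 10.27, 10.54, 10.35, 10.43 and 10.38, and the 6 HET mice at 10.68, 10.61, 10.51, 10.76, 10.85 and 10.92. Of the HET mice, 5 lay above every WT mouse, and replicate 3 fell within the WT range. The difference was 0.34 ± 0.06 (limma adjp = 0.055, exact two-sided permutation test, *p* = 0.0043). The gap was 0.22 in replicates 1 to 3 and 0.46 in replicates 4 to 6, the sets whose mean difference the authors had removed. The call was lost in 7 of 12 fits that left out 1 mouse (adjp 0.12 to 0.16), in one fit of all 48 mice (adjp = 0.58), with the replicate block (adjp = 0.17), without the filter (adjp = 0.14) and without the trend (adjp = 0.16), and it would not pass at an adjp of 0.05.

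The other members did not pass at 1 month. *Sgk1* was at 10.62 to 11.19 in WT and 10.94 to 11.41 in HET mice, with 4 HET mice above every WT mouse, and differed by 0.31 ± 0.09 (adjp = 0.31). *Tsc22d3* differed by 0.25 ± 0.07 (adjp = 0.31) and *Zbtb16* by 0.35 ± 0.15 (adjp = 0.52). For these 3 genes the difference was carried by replicates 4 to 6, where it was 0.57, 0.39 and 0.79, against 0.04, 0.11 and −0.10 in replicates 1 to 3. The receptors differed by −0.04 ± 0.05 (*Nr3c1*) and 0.13 ± 0.08 (*Nr3c2*), and *Mt1*, *Mt2*, *Pdk4* and *Plin4* by 0.01 to 0.19. The median of the 8 induced genes was 0.22 and that of 18 further induced genes 0.06, with 0 of the 18 called.

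No marker of another cell type passed the test between genotypes at 1 month, in any of the 11 marker lists. The list means that stood farthest from 0 in their genes' median difference were those of meninges (−0.47), striatum (0.38) and choroid plexus (0.30). Over the 12 mice the mean of the 6 striatal markers ran from 9.16 to 11.07 in WT and from 10.14 to 10.95 in HET mice, and that of the 6 meningeal markers from 8.11 to 8.93 and from 7.21 to 8.92. Their part in the *Fkbp5* difference was not tested.

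At 12 months the means lay the other way. All 8 induced genes had lower means in HET than in WT mice, with a median difference of −0.38 against 0.00 for all genes, yet none passed the test, beside 8 of 17288 genes called (0.0463%, with 0.00578% higher and 0.0405% lower). Several of the 8 moved together from mouse to mouse within groups, such as *Fkbp5* with *Tsc22d3* (*r* = 0.87) and *Mt1* with *Mt2* (*r* = 0.96). They are therefore not 8 separate observations, and the share of all genes with a lower HET mean was not counted. At an unadjusted limma *p* below 0.05 there were 2000 genes, and of the members *Fkbp5*, *Tsc22d3*, *Mt1* and *Mt2*. The exact two-sided permutation test gave *p* = 0.043 for *Fkbp5*, 0.078 for *Tsc22d3* and 0.052 for *Mt1*. *Mt2* had the lowest *p* of the 10. In the 6 WT mice it was at 11.39, 10.57, 10.23, 10.38, 10.67 and 11.61 from replicate 1 to 6, and in the 6 HET mice at 10.41, 10.09, 10.15, 10.13, 9.997 and 10.28. All HET values lay below the WT mean and 4 below every WT mouse, a difference of −0.63 ± 0.19 (adjp = 0.25, exact two-sided permutation test, *p* = 0.011). *Mt2* passed in one fit of all 48 mice (adjp = 0.042), which called 520 of 17311 genes at this age.

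*Fkbp5* was at 10.37, 10.71, 9.88, 10.08, 10.62 and 10.33 in the 6 WT mice of 12 months and at 9.98, 9.86, 9.93, 9.82, 9.80 and 10.40 in the 6 HET mice. All but HET replicate 6 lay below the WT mean. The difference was −0.37 ± 0.13 (adjp = 0.31). *Tsc22d3* differed by −0.42 ± 0.17 (adjp = 0.35), *Mt1* by −0.38 ± 0.15 (adjp = 0.36) and *Sgk1* by −0.34 ± 0.25 (adjp = 0.59). Without WT replicate 3, the lowest WT mouse in *Fkbp5* and *Mt2*, these 2 genes passed, with differences of −0.46 and −0.75 (adjp = 0.098 and 0.082). Leaving out the lowest WT mouse must raise the WT mean and widen these gaps. Calls over all genes were not counted in that fit, so no background stands beside these 2. Without WT replicate 6, the library that stood farthest from its group, *Mt2* was at −0.47, *Mt1* at −0.24 and *Sgk1* at −0.19. Without HET replicate 6, *Sgk1* was at −0.53. No marker of another cell type passed between genotypes at 12 months, and the list medians farthest from 0 were those of meninges (0.35), choroid plexus (−0.30) and striatum (−0.30). The means of the 6 meningeal markers ran from 7.79 to 8.26 in WT and from 7.82 to 8.79 in HET mice. Those of the 6 choroid plexus markers ran from 6.47 to 7.63 and from 5.81 to 8.19, and those of the 6 striatal markers from 10.61 to 11.10 and from 9.95 to 10.997. Their part in the 12-month differences was not tested.

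The spread between mice was widest in *Plin4*. Of the WT mice at 12 months, replicates 1, 2, 5 and 6 were at 8.72, 8.69, 8.55 and 8.46 and replicates 3 and 4 at 5.92 and 5.93. Of the HET mice, replicate 6 was at 8.36, replicate 1 at 7.03 and the other 4 between 5.71 and 6.60. The means differed by −1.12 ± 0.55 (adjp = 0.44), less than the SD of 1.39 between WT mice. Neither receptor passed at 12 months, with differences of 0.09 ± 0.08 for *Nr3c1* and 0.08 ± 0.10 for *Nr3c2*.

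The genotype effect at 12 months was set against that at 6 months in the same way. The change in effect was −0.40 ± 0.19 for *Fkbp5*, −0.52 ± 0.23 for *Mt2* and −1.16 ± 0.65 for *Plin4* (adjp = 0.57, 0.52 and 0.63), and none of the 10 genes passed, beside 10 of 17311 genes (0.0578%, with 0.0404% higher and 0.0173% lower).

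**Figure D2:**
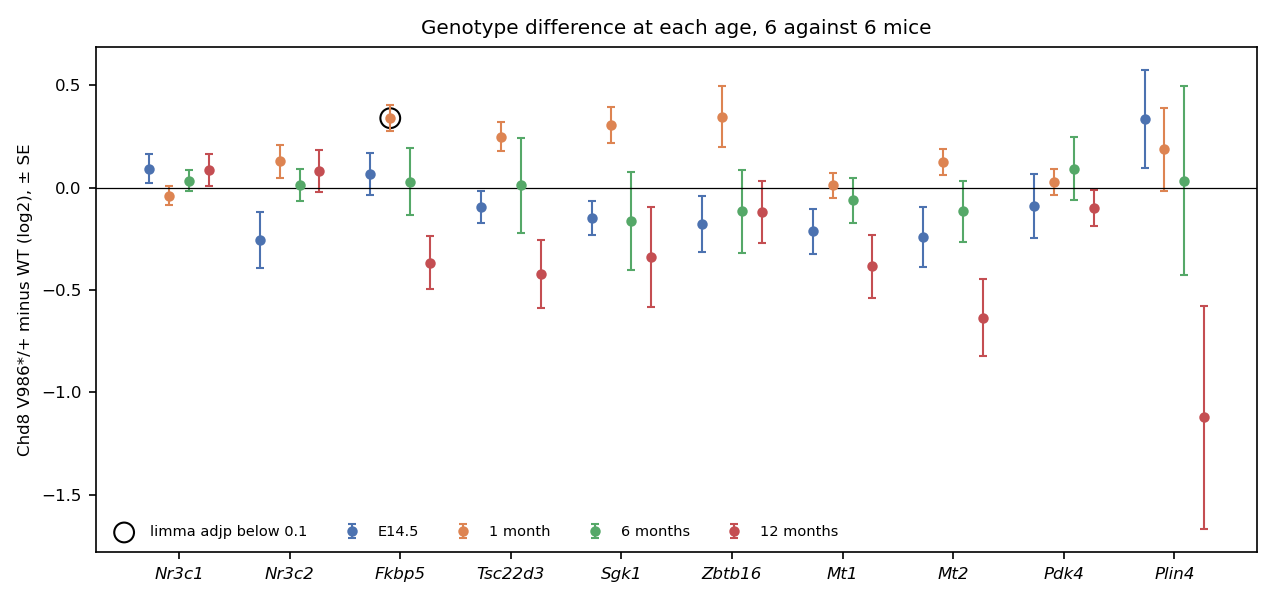
Difference in VST expression between HET (Chd8 V986*/+) and WT mice (log2, points) with its standard error (bars) for each gene and age. *Fkbp5* at 1 month, circled, is the single value that passed the test. The 12-month values of all 8 induced genes lie below 0 with wide errors and are not independent of each other.

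Within groups the mice differed from each other in these genes in a shared way. At 6 months, replicates 2 and 3 had the 2 highest values of all 8 induced genes, in WT and again in HET mice. *Fkbp5* was at 10.66 and 10.85 in these WT mice and at 9.95 to 10.15 in the other 4, and at 10.81 and 10.75 in these HET mice against 10.02 to 10.20. *Tsc22d3* was at 11.93 and 12.09 against 10.88 to 11.10 in WT mice, and at 11.72 and 12.11 against 10.89 to 11.20 in HET mice. *Plin4* was at 8.27 and 9.20 against 6.58 to 7.18, and at 8.74 and 8.34 against 6.53 to 7.95. These ranges do not overlap within a group.

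Over all 17256 genes tested at that age, 509 showed this order in both genotypes (2.95%), and 307 showed the opposite order, with both replicates lowest (1.78%). Of 18 further glucocorticoid-induced genes 12 showed it, and of 12 chaperones and coregulators of the receptor 1 did. These lists were chosen with earlier results of these data known. Neither receptor did. Nor did any marker of cortical neurons, oligodendrocytes, endothelial cells, microglia, mural cells, choroid plexus, meninges or blood, any of 11 clock genes or any of 9 genes that neuronal activity induces, and of 8 astrocyte markers 1 did. The order was noticed in these values and then counted in them. It rests on the same few mice for every gene, so genes that move together are not separate observations of it. The labels do not say whether same-numbered mice shared a cage, a litter or a day of dissection.

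At 12 months the high mice were other ones and the genes divided. In WT mice, *Fkbp5* and *Zbtb16* were highest in replicates 2 and 5, and *Mt1*, *Mt2* and *Pdk4* in replicates 1 and 6. *Zbtb16* was at 10.94 and 10.95 in replicates 2 and 5 and at 10.04 in replicate 6, its lowest mouse, where *Mt1* reached 12.45. *Plin4* was high in all 4 of these mice. The mean of the 8 astrocyte markers deviated from the group mean by 0.19 and 0.28 in replicates 1 and 6 and by −0.20 and −0.13 in replicates 2 and 5, and that of the cortical neuron markers by −0.18 and −0.33 and by 0.25 and 0.09. Their part in the metallothionein values was not tested. In HET mice, replicate 6 lay above the group mean in all 8 induced genes and was the highest mouse in *Fkbp5*, *Tsc22d3*, *Sgk1*, *Zbtb16* and *Plin4*.

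**Figure D3:**
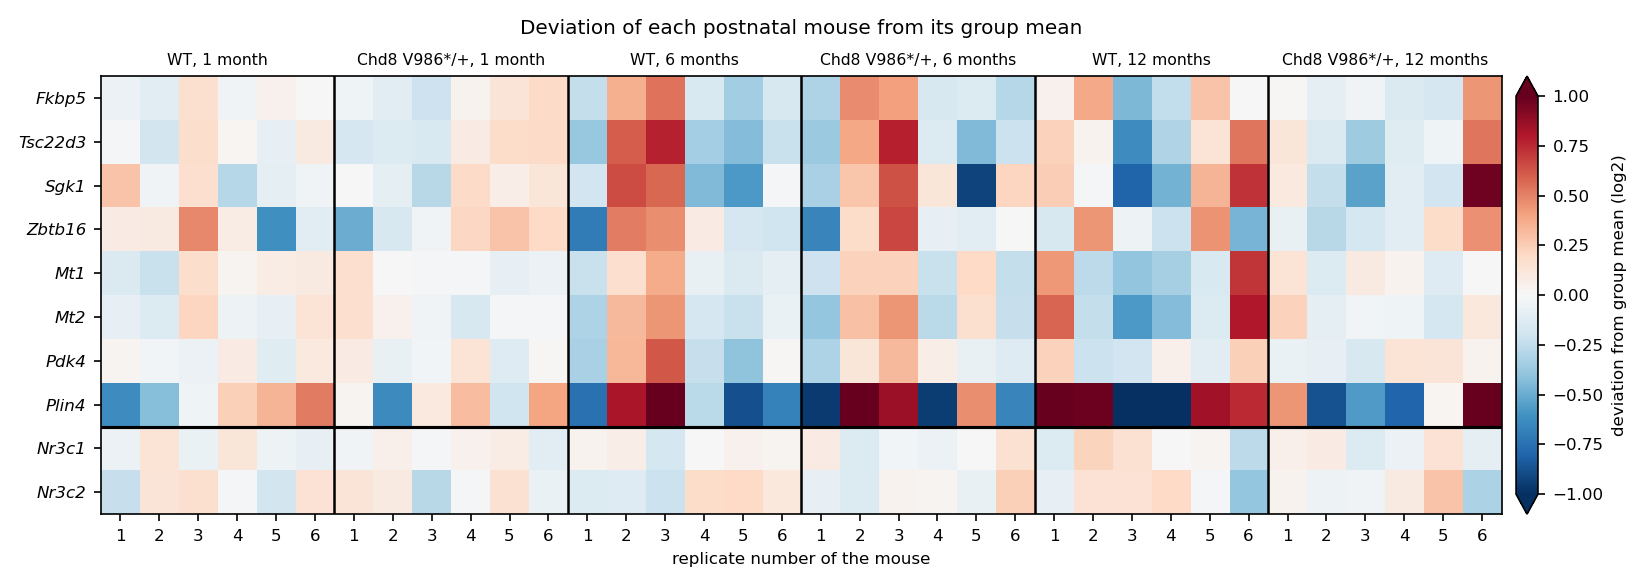
Deviation of each of the 36 postnatal mice from the mean of its group (log2, colour, with values beyond 1 in the darkest shade) for the 8 induced genes (above the line) and the receptors (below). Replicates 2 and 3 of 6 months are red in all 8 induced genes in both genotypes, and at 12 months the WT columns differ in which genes are high.

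To measure how closely the genes moved together from mouse to mouse, the group means were removed and *Fkbp5* was correlated with the other genes over the 36 postnatal mice, in a family of 14 relations with 100000 permutations within groups. *Tsc22d3* was closest, with a Pearson *r* of 0.87 and a Spearman rho of 0.87 (permutation *p* = 3.0e-05 and 2.0e-05, adjusted *p* = 0.00014 and 9.3e-05). *Plin4* followed with *r* = 0.85 and rho = 0.85 (permutation *p* = 2.0e-05 for each, adjusted *p* = 0.00014 and 9.3e-05), *Sgk1* with 0.72 and 0.71 (permutation *p* = 0.00013 and 1.0e-04, adjusted *p* = 0.00036 and 0.00035) and *Zbtb16* with 0.68 and 0.60 (permutation *p* = 8.0e-05 and 0.00055, adjusted *p* = 0.00028 and 0.0013). Without the 2 mice farthest from the median of *Fkbp5*, HET replicate 2 and WT replicate 3 of 6 months, the 4 values of *r* were 0.84, 0.81, 0.71 and 0.67. Without replicates 2 and 3 of 6 months in both genotypes they were 0.72, 0.79, 0.60 and 0.51. All 4 were also positive within 1, 6 and 12 months taken alone and within each set of replicates. At the 3 ages *Tsc22d3* had *r* = 0.86, 0.95 and 0.72, *Plin4* 0.36, 0.94 and 0.88, *Sgk1* 0.55, 0.74 and 0.75, and *Zbtb16* 0.39, 0.81 and 0.66.

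The metallothioneins and *Pdk4* were less tied to *Fkbp5*. *Mt2* had *r* = 0.59 and rho = 0.66 (permutation *p* = 0.0039 and 0.00031, adjusted *p* = 0.0090 and 0.00087), and *Mt1* had 0.47 and 0.58 (permutation *p* = 0.021 and 0.0019, adjusted *p* = 0.036 and 0.0038). *Pdk4* had *r* = 0.56 and rho = 0.44 (permutation *p* = 0.0086 and 0.027, adjusted *p* = 0.017 and 0.043). Without HET replicate 2 and WT replicate 3 of 6 months, *r* was 0.51 for *Mt2*, 0.36 for *Mt1* and 0.42 for *Pdk4*. Without replicates 2 and 3 of 6 months in both genotypes it was 0.33, 0.21 and 0.02. The relation of *Pdk4* to *Fkbp5* thus rests on those 4 mice, and those of *Mt2* and *Mt1* do so in large part. At 1, 6 and 12 months *r* was 0.25, 0.92 and 0.32 for *Mt2*, 0.22, 0.89 and 0.18 for *Mt1*, and −0.13, 0.89 and −0.09 for *Pdk4*. In replicates 4 to 6, which hold none of those 4 mice, *r* was 0.29 for *Mt2*, 0.15 for *Mt1* and −0.18 for *Pdk4*, against 0.81 for *Plin4* and 0.66 for *Tsc22d3*.

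*Mt1* and *Mt2*, the neighbouring metallothionein genes whose promoters are shown above, had *r* = 0.96 and rho = 0.93 over the 36 mice (permutation *p* = 1e-05 for each, the smallest that 100000 permutations can give, adjusted *p* = 0.00014 and 9.3e-05). Without the 2 mice farthest from the median of *Mt1*, WT replicates 1 and 6 of 12 months, *r* was 0.91. It was 0.76, 0.96 and 0.98 at 1, 6 and 12 months.

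Of the receptors, *Nr3c1* passed by rho alone and *Nr3c2* by neither measure. *Nr3c1* had *r* = −0.34 and rho = −0.42 with *Fkbp5* (permutation *p* = 0.077 and 0.020, adjusted *p* = 0.11 and 0.036), and *Nr3c2* had −0.36 and −0.37 (permutation *p* = 0.046 and 0.041, adjusted *p* = 0.072 and 0.058). Without the 2 mice farthest in *Fkbp5* the values of *r* were −0.17 and −0.26. Within ages *Nr3c1* had *r* = −0.36, −0.69 and −0.10 at 1, 6 and 12 months. *Nr3c2* had 0.31, −0.58 and −0.45, and 0.08 in replicates 1 to 3 against −0.63 in replicates 4 to 6. The mean of 9 endothelial markers had *r* = −0.02 with *Fkbp5*, that of 8 oligodendrocyte markers −0.20, that of 11 clock genes 0.00 and that of 9 activity-induced genes −0.05 (rho = −0.01, −0.18, −0.14 and −0.12, permutation *p* for *r* = 0.92, 0.26, 0.99 and 0.81, adjusted *p* = 0.99, 0.33, 0.99 and 0.95). Of the 14 relations, 8 passed an adjusted *p* of 0.05 for *r*.

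**Figure D4:**
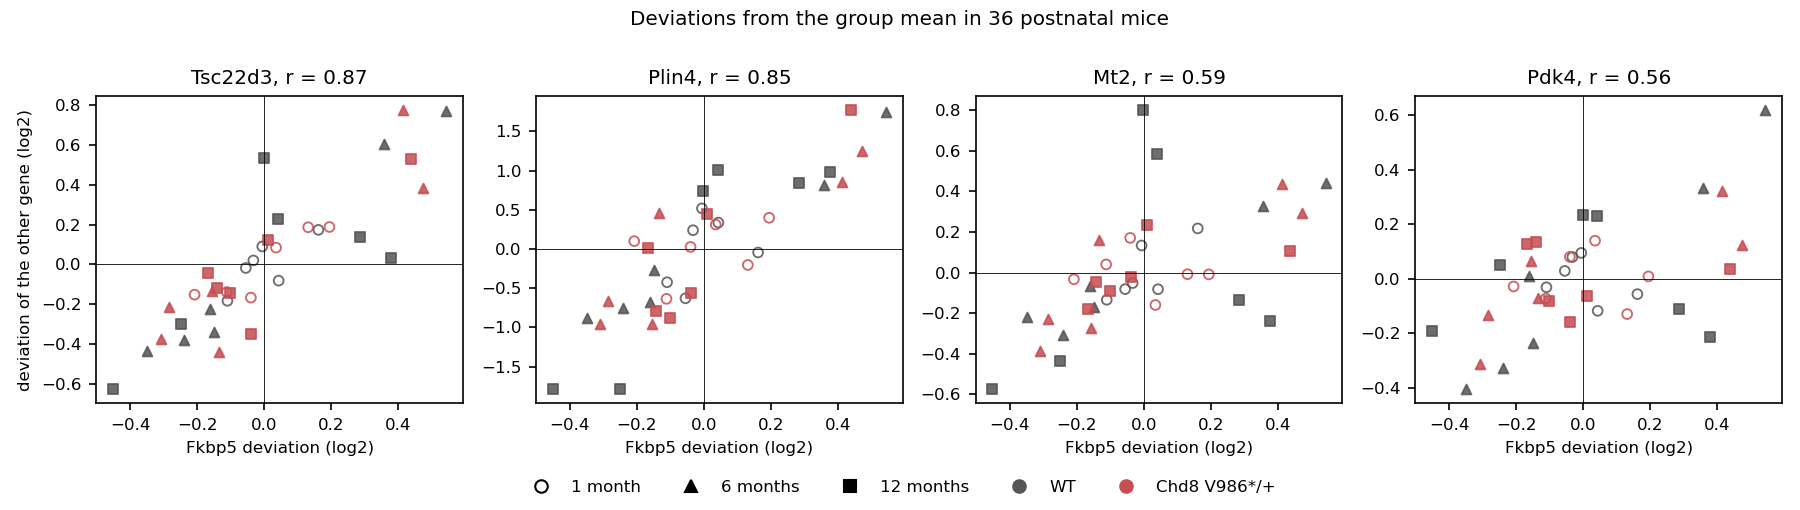
Deviation from the group mean in *Fkbp5* (horizontal axis, log2) against that in *Tsc22d3*, *Plin4*, *Mt2* and *Pdk4* (vertical axes, log2) in 36 postnatal mice, with WT in grey, HET in red and ages by symbol. *Tsc22d3* and *Plin4* follow *Fkbp5* over the whole range, whereas *Pdk4* does so through 4 mice of 6 months at the upper right.

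As a description over the same 36 mice, the genes most like each of 3 members were ranked among 17256 genes. For *Fkbp5* they were *Adipor2*, a receptor for adiponectin (*r* = 0.88), *Rin2* (0.87), *Tsc22d3* (0.87), *Lrrc8a*, a subunit of volume-regulated anion channels (0.86), and *Plin4* (0.85). Thus 2 of the top 5 were other members, and *Sgk1* stood at rank 75 and *Zbtb16* at 129. For *Mt2* they were *Mt1* (0.96), *Sdc4*, a heparan sulfate proteoglycan (0.92), *Fam107a* (0.91), *Nde1* (0.87) and *Ak3* (0.87). *Tsc22d3* stood at rank 35 for *Mt2*, with *r* = 0.76, and *Zbtb16* at 3786, with 0.22.

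For *Nr3c1* the most alike were *Map2k4*, a kinase of the JNK pathway (0.90), *Ttll7* (0.86), *Pcdh9*, a protocadherin of neurons (0.86), *Pcsk2*, a prohormone convertase (0.86), and *Pgm2l1* (0.85). *Nr3c2* had *r* = 0.58 with it. At the other end, *Mt1* had *r* = −0.72 with *Nr3c1* and stood at rank 17217 of 17256. The WT mice of 12 months with the highest *Mt1* values, replicates 6 and 1 at 12.45 and 12.17, had the lowest *Nr3c1* values, 11.75 and 11.88. In these mice the astrocyte marker mean deviated from the group mean by 0.28 and 0.19, the highest of the group. The cortical neuron marker mean deviated by −0.33 and −0.18, the lowest, and replicate 6 was the library farthest from its group. The part of these mice and of cell composition in this *r* was not tested. The ranks over all genes are a description, with no *p*.

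Other genes of the pathway were taken as lists. Of 18 further glucocorticoid-induced genes, 14 rose and 2 fell between E14.5 and 1 month in WT mice, with a median difference of 1.10, and 14 rose and 3 fell in HET mice, with a median of 1.16. These shares stand beside the 85.7% and 86.1% of all genes that passed. The largest increases in WT mice were those of *Fam107a*, an actin-binding stress-response gene (8.30 ± 0.11), *Klf9*, a transcription factor induced by glucocorticoids and thyroid hormone (6.34 ± 0.08), and *Glul*, the glutamine synthetase of astrocytes (3.44 ± 0.06). *Angptl4* (−1.45 ± 0.16) and *Ddit4* (−0.85 ± 0.11), an inhibitor of mTOR signalling, fell. All 8 astrocyte, 8 oligodendrocyte and 8 microglial markers rose in the same comparison, by a median of 3.401, 7.82 and 2.71, and what part this has in the increases was not tested.

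After 1 month few genes of this list passed in WT mice. Over all genes, 24.6% passed from 1 to 6 months in WT and 26.8% in HET mice, and 3.43% from 6 to 12 months in HET mice. Of the 18 listed genes, *Arrdc2* rose (0.50 ± 0.20, adjp = 0.090) and *Mfsd2a*, a lipid transporter of the blood-brain barrier, fell (−0.81 ± 0.19, adjp = 0.0077) from 1 to 6 months. None of the 18 passed from 6 to 12 months. In HET mice, 2 rose and 5 fell from 1 to 6 months. *Dusp1*, a phosphatase of MAP kinases, rose by 0.67 ± 0.19 and *Anxa1* by 0.53 ± 0.18, and the largest decreases were those of *Mfsd2a* (−0.80 ± 0.15), the cell cycle inhibitor *Cdkn1a* (−0.58 ± 0.21) and *Sult1a1* (−0.53 ± 0.20). From 6 to 12 months 3 of the 18 fell in HET mice, *Mfsd2a* (−0.60), *Errfi1* (−0.31) and *Bcl6* (−0.29). None of those tested differed between genotypes at a single age, with a median of −0.205 at 12 months. Averaged over the 4 ages, 1 of the 18, *Lcn2*, which encodes lipocalin 2, was lower in HET mice (−1.30 ± 0.33, adjp = 0.023), where 3% of all genes passed.

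Among 12 chaperones and coregulators of the receptor, 5 rose and 5 fell from E14.5 to 1 month in both genotypes, with a median near 0 (−0.01 in WT and −0.02 in HET mice), a share of called genes close to that of all genes. Averaged over the 4 ages, 1 of the 12, the chaperone *Hsp90ab1*, was lower in HET mice (−0.11 ± 0.03, adjp = 0.019). Over all genes 3% passed there (1.48% higher and 1.51% lower), and none of the 12 passed between genotypes at a single age. From E14.5 to 1 month *Fkbp4*, another cochaperone of the receptor, fell by 1.37 in WT mice (−1.37 ± 0.06). *Ptges3*, the p23 cochaperone (−0.59 ± 0.06), and the acetyltransferase *Crebbp* (−0.49 ± 0.09) fell too. *Ncoa1*, a steroid receptor coactivator, rose (0.90 ± 0.06), and so did the chaperone *Hsp90aa1* (0.25 ± 0.06). From 1 to 6 months 3 of the 12 rose and 0 fell in each genotype, beside 24.6% of all genes that passed in WT and 26.8% in HET mice. From 6 to 12 months 2 of the 12 fell in HET mice, beside 3.43% of all genes.

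Genes that make, break down or regulate the hormone form a further list. Of 12 such genes, 10 passed the filter, and 6 rose and 2 fell in WT mice from E14.5 to 1 month. Beside them, 85.7% of all genes passed in that comparison (43.4% higher and 42.3% lower). *Hsd11b1*, the enzyme that regenerates active glucocorticoid inside cells, rose by 6.11 ± 0.19, while *Hsd11b2*, which inactivates it, fell by 4.15 (−4.15 ± 0.28). *Crhbp*, which binds corticotropin-releasing hormone, rose by 4.51 ± 0.26 and *Crh*, the gene of the hormone itself, by 3.01 ± 0.14, and *Pomc* fell (−0.63 ± 0.18). In the same comparison the markers of meninges and of blood had median differences of −1.75 and −1.83. Those of midbrain, hindbrain and spinal cord had −2.72. What part a changing share of other tissue has in these values was not tested. From 1 to 6 months *Crh* fell in both genotypes (−0.44 ± 0.08 in WT and −0.41 ± 0.10 in HET mice), as did its receptor *Crhr1* (−0.26 ± 0.08 and −0.27 ± 0.07). Of the list, 0 genes rose and 3 fell in WT mice then, and 1 rose and 2 fell in HET mice. Over all genes, 24.6% passed in WT and 26.8% in HET mice. From 6 to 12 months 1 gene of the list rose and 1 fell in HET mice, beside 3.43% of all genes.

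Of 6 further genes of metal handling, 5 passed the filter and all 5 rose from E14.5 to 1 month in both genotypes. Over all genes, 43.4% rose in WT and 43.7% in HET mice, and 85.7% and 86.1% passed in either direction. *Mt3*, the metallothionein of brain, rose by 2.73 ± 0.09, the zinc importer *Slc39a10* by 1.01 ± 0.06 and the metal-responsive transcription factor *Mtf1* by 0.78 ± 0.06 in WT mice. From 1 to 6 months, where *Mt2* fell, *Mt3* fell by 0.11 in HET mice (−0.11 ± 0.05, adjp = 0.095). The zinc exporter *Slc30a1* (0.22 ± 0.06) and *Gclc*, an enzyme of glutathione synthesis (0.16 ± 0.04), rose in WT mice. In HET mice 1 gene of the list rose. Over all genes, 24.6% passed in WT and 26.8% in HET mice from 1 to 6 months.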

How the data were processed

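Expression was analysed in cortex of 48 male mice. Per the labels and the methods, the authors extracted polyA RNA, trimmed reads, aligned them to mm9 with STAR 2.5.2b, quantified them with Salmon 0.11.3 and used DESeq2 1.22.2 with a correction for batch. The values the authors deposited are log2 VST values of 24444 genes. For every gene, the means of replicates 1 to 3 and of replicates 4 to 6 were the same, with a largest gap of 3.38e-14, which shows that these sets had been adjusted to each other before deposit. For the library kit, the labels name TruSeq and the methods KAPA. Read counts per gene were not analysed here. Counting error is therefore unknown, and precision is given by the spread between 6 mice. Whether same-numbered mice shared a litter or day is not stated.

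Each comparison of 6 against 6 mice was fitted with limma 3.58.1 in R 4.3.3 with an intensity trend, over genes whose mean lay at least 0.5 above the floor, and an adjusted *p* (Benjamini-Hochberg over all genes, adjp) below 0.1, the threshold of the study, counted as a call. Differences of genotype effects and the mean over 4 ages came from one fit of 48 mice. Single genes were also tested with exact two-sided permutations of 6 against 6 mice, whose smallest *p* is 0.0022. The fits were tested on simulated data. The members and gene lists were chosen with earlier results of these data known. All 10 members are named. For *Fkbp5*, *Mt2* and *Nr3c1* the 5 genes with the highest *r* are named. Genes of other lists are named only where called, at most 3 in each direction with the largest change in a comparison. Not every called gene of these lists is named. A gene that this rule would name is not reported here. Promoters are from RefSeq (GRCm38.p6) and genome windows and gene positions from mm9. Alternatives were a replicate block, one fit of 48 mice, other filters and variance models, quantile normalization, centring on the median gene, an adjp of 0.05, the replicate sets as covariate and leaving out each mouse. Leaving out the 6-month replicates 2 and 3 was chosen after seeing the data. Permutations, correlations and plots were made in Python 3.11.15 with scipy 1.17.1, matplotlib 3.10.9, pandas 2.3.3 and numpy 2.4.6.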

Additional observations from a re-analysis of the deposited data

Results flagged for a closer look

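In 4 of 80 groups of 6 mice, the gap between the highest or lowest mouse and its nearest neighbour took up more of the group's range than Dixon's critical value allows, where chance gives about 1 in 20, or 4 groups. *Nr3c1* was lowest in WT replicate 3 of 6 months, at 11.93. *Fkbp5* was lowest in WT replicate 1 of E14.5, at 10.42, and highest in HET replicate 6 of 12 months, at 10.40. *Mt1* was highest in HET replicate 1 of 1 month, at 11.94.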

How the results depend on the processing

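The higher *Fkbp5* of HET mice at 1 month kept its direction in every alternative but lost the call, so that 0 members were called rather than 1, in one fit of all 48 mice, with the replicate block, without the filter, without the trend and at an adjp of 0.05, and in fits that left out WT replicate 1, 2, 4 or 6 or HET replicate 4, 5 or 6 (0 to 1 members). At 12 months, 1 member, *Mt2*, was lower in HET mice in one fit of all 48 mice rather than 0, and 0 to 2 were when a mouse was left out. In WT mice from 1 to 6 months, 2 members were lower with the replicate block rather than 1, 4 without the 6-month replicates 2 and 3, and 1 to 2 when a mouse was left out (2 without WT replicate 1 or 2 of 1 month or replicate 2 or 3 of 6 months). In HET mice from E14.5 to 1 month, 1 member was lower rather than 0, *Fkbp5*, with the replicate block, quantile normalization or the replicate sets as covariate, and 0 to 1 when a mouse was left out (1 without replicate 1 of E14.5). In HET mice from 1 to 6 months, one fit of all 48 mice called 5 members, 2 of them lower, rather than 8 and 4. In HET mice from 6 to 12 months, 0 members were called rather than 1 in one fit of all 48 mice, with the replicate block, without the filter, without the trend, at an adjp of 0.05 and without the 6-month replicates 2 and 3, and 0 to 3 when a mouse was left out. Calls over all genes were not counted in the fits that left out 1 mouse. Of the 14 correlations, 5 rather than 8 passed in WT mice alone and without the 6-month replicates 2 and 3.

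Without the 6-month replicates 2 and 3, small differences changed sign: *Nr3c2* between genotypes at 6 months (−0.046), *Zbtb16* in WT (−0.0163) and *Sgk1* in HET mice (−0.0941) from 1 to 6 months, and *Sgk1* (0.0624), *Tsc22d3* (0.22) and *Pdk4* (0.10) in WT mice from 6 to 12 months. Quantile normalization did so for *Nr3c1* in HET mice from 6 to 12 months (0.0032) and *Nr3c2* over the 4 ages (0.0043). The correlation of *Fkbp5* with clock genes was −0.0254 in 48 mice, −0.0048 in HET mice and −0.0929 without the 6-month replicates 2 and 3, that with activity-induced genes 0.34 in WT mice, and that with endothelial markers 0.0501 in HET mice and 0.0851 without those replicates. No sign change concerned a called value. The cause of these changes was not tested, beyond the mice that each setting leaves out.

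Same-numbered WT and HET mice correlated by 0.23 on average at E14.5 (0.012 to 0.58) and by 0.018, 0.045 and −0.034 at 1, 6 and 12 months over all genes, and at no age did every pair exceed 0.1, so the numbers were not treated as pairs. Each mouse correlated best with its own number in 4, 1, 1 and 0 of 6 pairs. In single genes, as a description over 6 pairs, the 8 induced genes had *r* from 0.67 to 0.97 between same-numbered mice at 6 months and from −0.65 to 0.82 at 1 month. It ran from −0.29 (*Plin4*) to 0.96 (*Fkbp5*) at E14.5 and from −0.41 (*Zbtb16*) to 0.90 (*Tsc22d3*) at 12 months. The tests without the replicate block treat these mice as independent. With the replicate block, *Fkbp5* at 1 month had an adjp of 0.17. Without depth per gene, low values such as those of *Plin4* in embryos have an unknown counting error. Over all genes, one fit of all 48 mice called 93, 37 and 520 genes between genotypes at E14.5, 1 and 12 months rather than 1, 24 and 8, and 7 and 100 genes from 6 to 12 months in WT and HET mice rather than 1 and 592. The replicate block called 2, 13, 30 and 2 genes between genotypes at the 4 ages rather than 1, 24, 16 and 8, 0 rather than 1 from 6 to 12 months in WT mice, and 6 rather than 10 for the change in genotype effect from 6 to 12 months. Without the trend there were 0 and 4 genotype calls at E14.5 and 6 months and 257 from 6 to 12 months in HET mice. Without the 6-month replicates 2 and 3 these counts were 1 between genotypes at 6 months and 0 and 60 from 6 to 12 months in WT and HET mice. At E14.5 the genotype count was 3 without the filter and 2 with a stricter filter, quantile normalization or the replicate sets as covariate, and the last of these gave 0 from 6 to 12 months in WT mice. Quantile normalization moved the median difference of all genes from E14.5 to 1 month from 0.02 to −0.10 in WT and −0.11 in HET mice, and both receptors and the same 7 induced genes rose under it.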
